A study of Mus musculus with 6 samples.

Results

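The genes described here are 10 mouse genes for surface and secreted proteins that restrain immune cells. They were chosen by symbol from the 24421 gene symbols of the count data. The 10 are the B7-family ligands Cd274, Pdcd1lg2 and Cd276, the phagocytosis inhibitor Cd47, the galectins Lgals1 and Lgals9, the TIGIT ligand Pvr, the ectoenzymes Entpd1 and Nt5e, and the death ligand Fasl. Expression was measured by RNA sequencing of endothelial cells sorted by flow cytometry from subcutaneous B16F0 tumours, a transplantable mouse melanoma line, in C57BL/6 mice. The 15C4 group (3 libraries) came from mice given 15C4, an antibody that blocks the secreted glycoprotein LRG1, and the IgG group (3 libraries) from mice given control IgG. Both antibodies were dosed at 50 mg/kg, once in 3 days, and all tumours grew for 17 days. The labels used here state neither age, sex nor how many animals a library holds, so the p-values speak of the spread among these libraries, part of which may be technical.

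Immune checkpoints are ligand and receptor pairs that limit T cell, NK cell and macrophage responses. Ligands such as PD-L1 on tumour or endothelial cells engage inhibitory receptors such as PD-1 on lymphocytes, and interferon gamma acting through JAK kinases and IRF1 is a well-known inducer of PD-L1. A parallel arm removes extracellular ATP, since CD39 converts ATP to AMP and CD73 converts AMP to adenosine, which suppresses T cells. Endothelial cells of tumours are known to carry several of these proteins, and melanoma cells carry many of them as well.

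Cd274, which encodes PD-L1, and Pdcd1lg2, which encodes PD-L2, are neighbours on chromosome 19. Cd274 spans 29367455 to 29388095 and Pdcd1lg2 29410919 to 29471161 on the plus strand of GRCm38 (GENCODE M21), with 22823 bases between them. The next 3 sequences are the 250 bases before the RefSeq start of a gene (GRCm38.p6, 5′ to 3′ on the gene's strand). The pair from chromosome 19 is shown because these neighbours differed widely in level, and Lgals9 because it was the 1 member with a match to the interferon regulatory factor (IRF) motif. Capitals mark the matched letters. Cd274 is chr19:29367188-29367437 (plus), Pdcd1lg2 is chr19:29410669-29410918 (plus) and Lgals9 is chr11:78984925-78985174 (minus).
Cd274: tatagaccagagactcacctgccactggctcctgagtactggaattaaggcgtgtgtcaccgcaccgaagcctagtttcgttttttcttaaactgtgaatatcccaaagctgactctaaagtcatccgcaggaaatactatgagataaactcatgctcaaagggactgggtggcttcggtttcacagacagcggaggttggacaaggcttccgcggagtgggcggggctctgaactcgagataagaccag
Pdcd1lg2: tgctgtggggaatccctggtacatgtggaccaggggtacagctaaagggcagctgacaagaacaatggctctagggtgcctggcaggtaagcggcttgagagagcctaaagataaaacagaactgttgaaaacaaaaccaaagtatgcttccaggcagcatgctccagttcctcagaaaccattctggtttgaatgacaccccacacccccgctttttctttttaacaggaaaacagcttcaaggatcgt
Lgals9: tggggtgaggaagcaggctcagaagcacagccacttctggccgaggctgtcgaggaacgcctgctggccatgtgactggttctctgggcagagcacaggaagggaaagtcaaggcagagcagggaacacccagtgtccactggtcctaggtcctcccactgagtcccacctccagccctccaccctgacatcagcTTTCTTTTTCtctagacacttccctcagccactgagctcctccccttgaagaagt
The 3 motifs searched, on both strands, were the IRF motif, which is a GAAA, any 2 bases and a second GAAA, the gamma-activated site TTCNNNGAA, known from interferon gamma responses, and the hypoxia response core ACGTG. The RefSeq table held 8 of the 10 genes with 10 starts. The IRF motif was in 1 of these 10 windows, beginning 55 bases before the Lgals9 start, against 2.98% of all 32851 windows of this length. The gamma-activated site was in 0 of 10, against 7.02% of all windows. The hypoxia core was in the overlapping windows of both Cd47 starts, against 16.6% of all windows, and the motifs did not overlap each other. A match is a description of the letters and not evidence of binding.

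The other members lie on chromosome 9 (Cd276, 58524298 to 58555437, and Nt5e, 88327197 to 88372092), chromosome 16 (Cd47, 49800533 to 49915010), chromosome 15 (Lgals1, 78926725 to 78930465) and chromosome 11 (Lgals9, 78962974 to 78984946). Pvr is on chromosome 7 (19903578 to 19921160), Entpd1 on chromosome 19 (40612366 to 40741602) and Fasl on chromosome 1 (161780689 to 161788495). Exons of Cd274 and Cd276 each overlap 1 annotated gene on the opposite strand that has no count of its own in the files. No source used here states the strand setting of the counting, so reads of these partners cannot be told apart from those of Cd274 and Cd276.

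Total counts lay between 5175600 and 19572202 per library. Melanocyte markers summed to 24704 to 29315 CPM (counts scaled to the library total) in the 15C4 libraries and to 25387 to 29737 CPM in the IgG libraries. The 20 pan-endothelial markers summed to 1631 to 3410 CPM in the 15C4 libraries, against 229 to 2839 CPM in the IgG libraries, the lowest being IgG 3. Melanocyte transcripts thus exceeded endothelial ones in every library, and a level given below cannot be assigned to endothelial rather than tumour cells. Leukocyte markers were highest in IgG 1, with a sum of 218 CPM over 5 genes against 1.03 to 7.499 CPM in the other libraries. In bulk RNA, fewer cells of a type and less RNA per cell cannot be told apart.

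The 10 genes together made up 1433, 1408 and 1038 CPM in 15C4 libraries 1, 2 and 3, against 1384, 1430 and 1929 CPM in IgG libraries 1, 2 and 3. Lgals1 alone accounted for 45.6% to 56.6% of this sum in the 15C4 libraries and for 47.5% to 71.8% in the IgG libraries. All 10 genes had at least 1 count in IgG 1 only. In the other libraries 8 or 9 of the 10 were detected.

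Levels were compared between genes as CPM per kilobase of the longest CCDS transcript. Lgals1 ranked highest, at 834 ± 154 in 15C4 and 1202 ± 467 in IgG, followed by Lgals9 at 129 ± 2.55 in 15C4 and 114 ± 24.3 in IgG (CPM per kilobase, SD, n = 3 each). Each of these steps, Lgals1 above Lgals9 and Lgals9 above the next gene, held in 6 of 6 libraries. Pvr, Cd47 and Cd274 followed with means of 25.9 to 38.3 CPM per kilobase in either group. They could not be ordered, since Pvr exceeded Cd47 in 3 of 6 libraries and Cd47 exceeded Cd274 in 4 of 6. Cd276 had 10.6 ± 4.27 CPM per kilobase in 15C4 and 4.81 ± 3.09 in IgG, and Nt5e had 9.58 ± 2.55 in 15C4 and 5.22 ± 2.84 in IgG, with Cd276 the higher in 4 of 6 libraries. Nt5e exceeded Entpd1 in 6 of 6 libraries, where Entpd1 had 2.45 ± 1.26 CPM per kilobase in 15C4 and 2.87 ± 2.32 in IgG. Fasl and Pdcd1lg2 had the lowest means. Entpd1 exceeded Fasl in 5 of 6 libraries, the exception being IgG 1, where Fasl had 5.89 and Entpd1 3.66 CPM per kilobase. With the length of all merged exons in place of the CCDS transcript, Cd274 took rank 3 and Pvr rank 5.

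**Figure D1:**
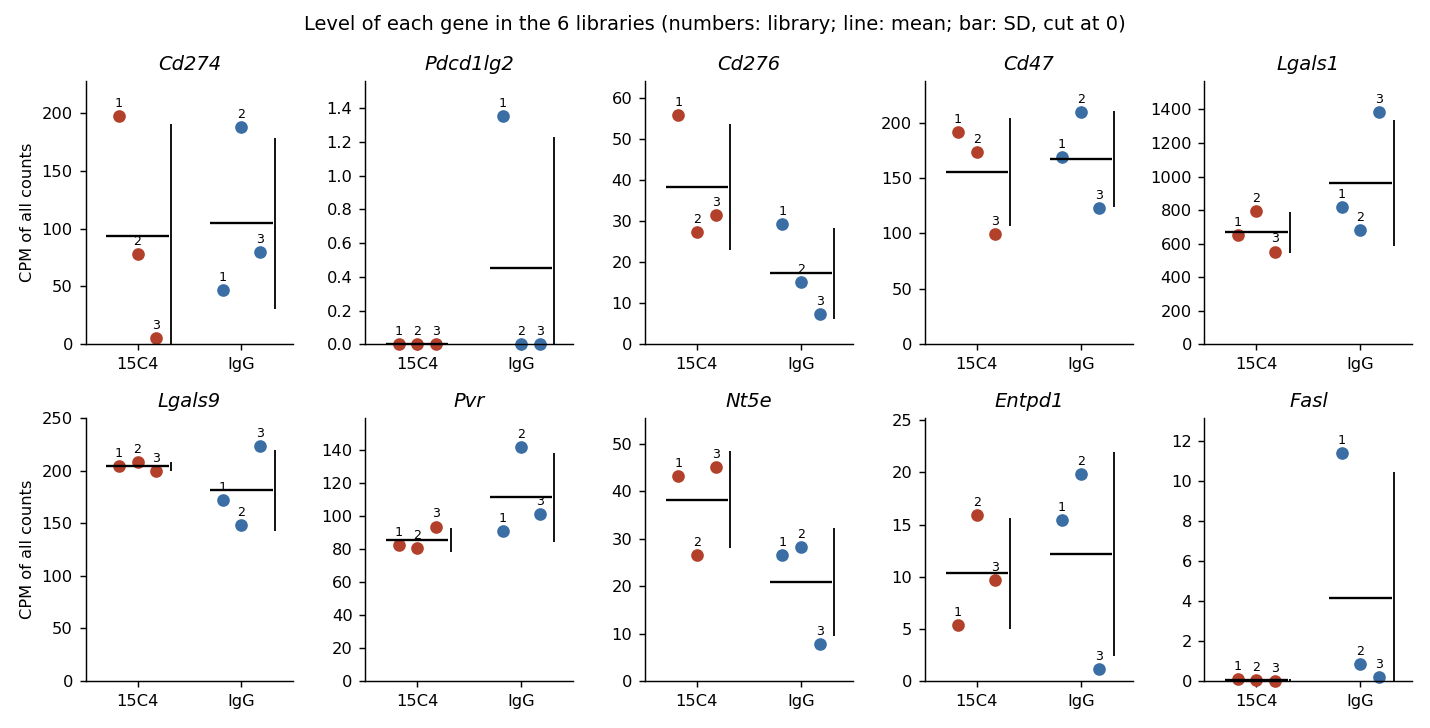
Level of each of the 10 genes in CPM of all counts (y axis, linear from 0) in the 3 15C4 libraries (red) and the 3 IgG libraries (blue); the digit is the library number, the line the mean and the bar the SD, cut at 0. The groups overlap in every panel except Fasl, where IgG 1 stands at 11.4 CPM, and Cd274 ranges from 5.32 to 197 CPM within 15C4.

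None of these genes passed the test between 15C4 and IgG. The comparison asks whether blocking LRG1 alters the expression profile of the sorted cells. Of the 10 genes, 8 passed the filter on low counts, and 0 of these 8 had an adjusted p under 0.05 (edgeR quasi-likelihood test with Benjamini-Hochberg adjustment, adjusted p = 0.9997 for each), where 0% of the 11144 tested genes did. At an unadjusted p under 0.05 there were 0 of 8, against 2.58% of all tested genes. The groups overlapped for all 8, while they did not overlap for 9.52% of tested genes. The fits lay above 0 for 3 of the 8 and below 0 for 5, with a median log2 fold change (15C4 over IgG) of -0.07 beside 0.01 for all tested genes. This median lay between -0.12, without IgG 3, and 0.29, without IgG 2. DESeq2 called 0.252% of the genes it adjusted and limma-voom 0 genes, and neither called any of the 8.

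**Figure D2:**
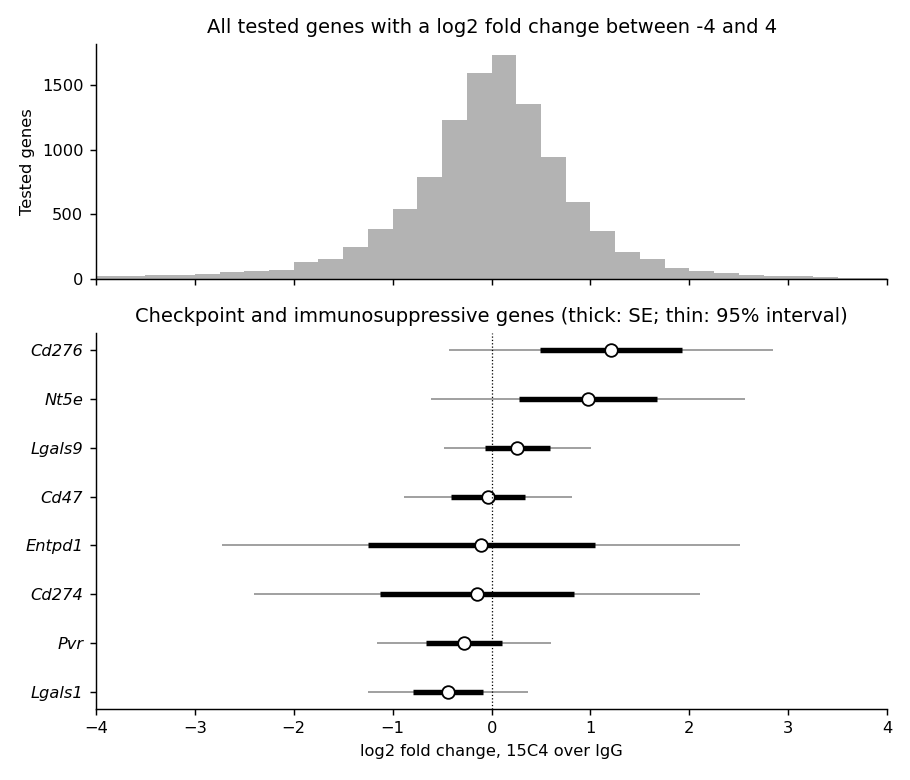
Top, number of tested genes (y axis) by log2 fold change of 15C4 over IgG (x axis, bins of 0.25). Bottom, the 8 members that passed the count filter on the same axis, with the SE as a thick and the 95% interval as a thin line. Every interval includes 0, from Cd276 at 1.21 down to Lgals1 at -0.44.

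Among the B7-family ligands, Cd274 varied most between libraries of the same group. It had 197, 78.4 and 5.32 CPM in 15C4 1, 2 and 3, against 46.6, 188 and 79.8 CPM in IgG 1, 2 and 3. The values of 15C4 enclosed those of IgG, and 15C4 3 was the lowest of the 6 with 34 counts. Its log2 fold change was -0.15 (SE 0.98, 95% interval -2.40 to 2.10), and the two-sided exact permutation p of the CPM was 0.9. The ratio of the highest to the lowest library was 37.1. Irf1, the transcription factor through which interferon gamma induces PD-L1, was at 340, 121 and 6.57 CPM in the 15C4 libraries, against 99.5, 142 and 73.8 CPM in the IgG libraries. Like Cd274, it was highest in 15C4 1 and lowest in 15C4 3. The melanocyte genes Mitf, Sox10 and Mc1r had the same highest and lowest libraries, while Tyrp1 and Oca2 were highest in 15C4 3. The fewest genes were detected in 15C4 3, at 10413, against 11752 to 13707 in the other libraries. The part of this in the low values was not tested. Cmtm6, which encodes a membrane protein that stabilises PD-L1, had 0 counts in 15C4 3 and 38.2 to 76.9 CPM in the other 5 libraries.

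Pdcd1lg2, whose product also binds PD-1, was almost undetected. It had 0 counts in each 15C4 library, against 7, 0 and 0 counts in IgG 1, 2 and 3. All of its counts came from IgG 1, the library with the leukocyte transcripts, and their part in this value was not tested. With 15C4 set to a floor of 3 counts over the group, the level of Pdcd1lg2 was 3.03-fold lower there than in IgG. This takes the 7 IgG counts as exact, so it is not a lower bound. Without IgG 1 both groups stood at 0. Its neighbour Cd274 had 241 counts in the same library. Rgmb, which encodes another receptor of PD-L2, was at 16.9 to 51.3 CPM in the 15C4 libraries, against 26.9 to 36.5 CPM in the IgG libraries.

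Cd276, which encodes B7-H3, a B7-family protein known from tumour vessels, had the largest fold change of the 8 tested members. It was at 55.8, 27.3 and 31.6 CPM in 15C4 1, 2 and 3, against 29.4, 15.1 and 7.46 CPM in IgG 1, 2 and 3. IgG 1 overlapped the 15C4 values, and the lowest value was in IgG 3. The means were 38.2 ± 15.4 CPM in 15C4, against 17.3 ± 11.1 CPM in IgG (SD over 3 libraries a group; exact permutation p = 0.2, two-sided). The log2 fold change was 1.21 (SE 0.72, 95% interval -0.43 to 2.85, unadjusted p = 0.128 by the edgeR test), and 15.5% of tested genes had a larger one in absolute size. It was 0.87 without IgG 3 and 1.83 without IgG 1. IgG 3 also had the fewest pan-endothelial transcripts, and the part of this in the difference was not tested. Within 15C4, however, Cd276 was lowest in 15C4 2, the library with the most pan-endothelial transcripts.

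Cd47 encodes a surface protein that signals to macrophages through SIRP-alpha not to engulf the cell. It was at 192, 174 and 99.8 CPM in 15C4 1, 2 and 3, against 169, 209 and 123 CPM in IgG 1, 2 and 3. The groups overlapped fully, and the lowest value of each group was in library 3. Its fold change on the log2 scale was -0.04 (SE 0.37, 95% interval -0.88 to 0.81). Its spread was among the smaller ones, with a fitted biological coefficient of variation of 0.391 beside a median of 0.722 over tested genes.

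The galectins are secreted proteins that bind cell-surface glycans. Galectin-1, encoded by Lgals1, is known to induce death of activated T cells, and was at 653, 797 and 553 CPM in 15C4 1, 2 and 3, against 821, 679 and 1385 CPM in IgG 1, 2 and 3. IgG 3 stood above the other 5 libraries, while IgG 2 lay within the 15C4 range. The means were 668 ± 123 CPM in 15C4, against 962 ± 373 CPM in IgG (SD over 3 libraries a group; exact permutation p = 0.2, two-sided), and the log2 fold change was -0.44 (SE 0.35, 95% interval -1.25 to 0.37). Without IgG 3 it was -0.05. Galectin-9, encoded by Lgals9, is a ligand of TIM-3 and was the steadiest member. It was at 204, 208 and 200.1 CPM in 15C4 1, 2 and 3, against 172, 148 and 224 CPM in IgG 1, 2 and 3. The 15C4 libraries lay close together between the IgG values, with a log2 fold change of 0.26 (SE 0.32, 95% interval -0.48 to 1.00). The highest library exceeded the lowest 1.51-fold.

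Pvr encodes CD155, which binds the inhibitory receptors TIGIT and CD96 and the activating receptor CD226. It was at 82.4, 80.3 and 93.5 CPM in 15C4 1, 2 and 3, against 90.6, 142 and 101 CPM in IgG 1, 2 and 3. IgG 2 was the highest library, and 15C4 3 and IgG 1 overlapped. Its log2 fold change was -0.28 (SE 0.39, 95% interval -1.16 to 0.60; two-sided exact permutation p of the CPM 0.2). The receptor genes Tigit, Cd96 and Cd226 were highest in IgG 1, at 2.13, 4.06 and 5.41 CPM, and at most 0.519 CPM in any other library.

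The ectoenzymes of the adenosine arm shared their lowest library. Nt5e, which encodes CD73, was at 43.2, 26.6 and 45.1 CPM in 15C4 1, 2 and 3, against 26.5, 28.3 and 7.798 CPM in IgG 1, 2 and 3. 15C4 2 lay among the IgG values and IgG 3 was below all others. The means were 38.3 ± 10.2 CPM in 15C4, against 20.9 ± 11.3 CPM in IgG (SD over 3 libraries a group; exact permutation p = 0.2, two-sided). The log2 fold change was 0.97 (SE 0.69, 95% interval -0.61 to 2.56, unadjusted p = 0.195 by the edgeR test), and 0.61 without IgG 3. Entpd1, which encodes CD39, was at 5.36, 15.9 and 9.70 CPM in 15C4 1, 2 and 3, against 15.5, 19.8 and 1.11 CPM in IgG 1, 2 and 3. The groups overlapped, and IgG 3 held 13 counts. For Entpd1 the log2 fold change was -0.10 (SE 1.15, 95% interval -2.72 to 2.52). Cd276, Nt5e and Entpd1 were the 3 members lowest in IgG 3, where the pan-endothelial sum was 229 CPM against 1631 CPM or more in the other libraries. Within 15C4 the order differed by gene. Cd276 and Nt5e were lowest, and Entpd1 highest, in 15C4 2, which had the highest pan-endothelial sum of all, at 3410 CPM.

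Fasl, which encodes the ligand of the death receptor FAS, was the 1 member whose groups did not overlap, and it failed the filter on low counts. It had 1, 1 and 0 counts in 15C4 1, 2 and 3, against 59, 8 and 2 counts in IgG 1, 2 and 3. These were 0.119, 0.0511 and 0 CPM in 15C4 1, 2 and 3, against 11.4, 0.830 and 0.171 CPM in IgG 1, 2 and 3. Of the 69 IgG counts, 59 came from IgG 1. The ratio of 15C4 over IgG in pooled counts was 0.0223 (95% counting interval 0.00265 to 0.0838), and 0.124 (0.0132 to 0.582) without IgG 1. These intervals cover counting error only. The two-sided exact permutation p of the CPM was 0.1, the smallest that 3 libraries against 3 can give. All 15C4 libraries lay below all IgG libraries for 6.64% of the tested genes, which do not include Fasl. Its separation rests on 2 counts in IgG 3 against 1 count in 15C4 1, too few to tell apart. In the authors' deposited table the log2 fold change of Fasl was 5.96 for IgG over 15C4, with an adjusted p of 0.0652, and 0 of the 10 genes had an adjusted p under 0.05 there. T and NK cells are the cell types best known for FAS ligand. Of 16 marker genes of these cells 15 were in the files, with 0 counts of Cd4 and Cd8b1 throughout, and their sum was 222, 5.36 and 21.9 CPM in the 15C4 libraries, against 639, 18.7 and 9.26 CPM in the IgG libraries. Ccl5 alone made up 214 CPM of the sum in 15C4 1. Without Ccl5 the other markers summed to 8.93, 2.15 and 2.19 CPM in 15C4 1, 2 and 3, against 515, 15.2 and 1.97 CPM in IgG 1, 2 and 3. Their granzyme gene Gzma was at 178 CPM in IgG 1 and at 0.514 to 4.56 CPM elsewhere, and the pan-leukocyte gene Ptprc at 86.9 CPM in IgG 1 and at 0.0857 to 1.87 CPM elsewhere. Their part in the Fasl counts was not tested. The receptor gene Fas was at 0, 1.63 and 0 CPM in the 15C4 libraries, against 4.64, 0 and 0 CPM in the IgG libraries.

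**Figure D3:**
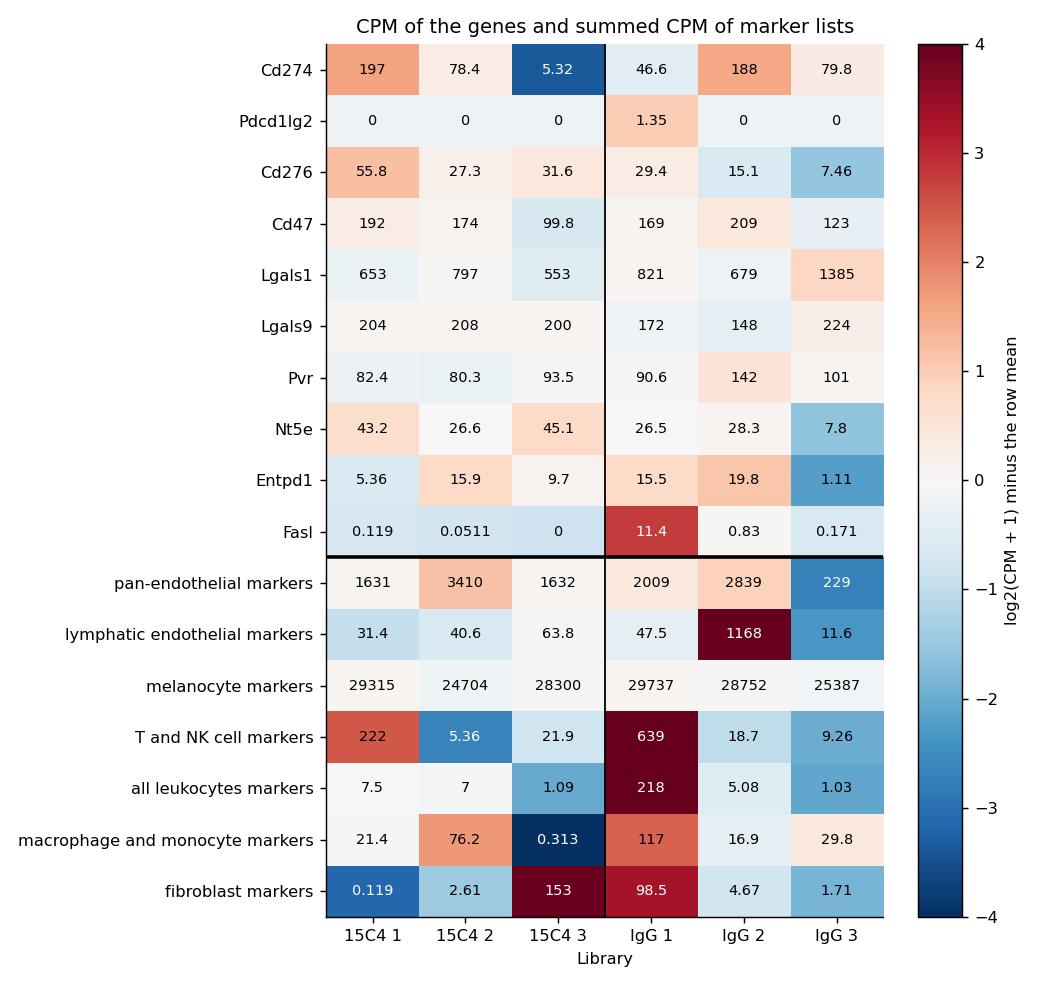
CPM of the 10 genes (above the line) and summed CPM of 7 marker lists (below it) in each library, 15C4 at the left and IgG at the right; colour is log2(CPM + 1) minus the row mean. Fasl and the leukocyte markers peak in IgG 1, Cd276, Nt5e and Entpd1 are lowest in IgG 3 with the pan-endothelial markers, and Cd274 is lowest in 15C4 3. Within 15C4, Cd276 and Nt5e are lowest in 15C4 2, where the pan-endothelial markers are highest.

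Partner genes of these pathways were described from lists of 7 to 20 genes, and 0 genes of any list passed the test over all genes. Of the 16 other checkpoint ligands and inhibitory surface genes, 8 were tested, 3 above 0 and 5 below (median log2 fold change -0.14). With single libraries left out, this median lay between -1.09, without 15C4 2, and 0.62, without IgG 2. The medians of the other lists also crossed 0, between -0.68 and 0.26 for the receptors, -0.58 and 0.47 for the CD47 list, -0.08 and 0.26 for the interferon gamma list and -0.17 and 0.20 for the FAS list, except for the adenosine list, which lay between -0.83 and -0.38. Among the other checkpoint ligands, Lgals8, another galectin, was at 112 ± 56.0 CPM in 15C4, against 135 ± 22.5 CPM in IgG. Pvrl3, which encodes nectin-3, had 68.6 ± 34.7 CPM in 15C4, against 57.8 ± 10.8 CPM in IgG. Cd200, which encodes a ligand that restrains myeloid cells, was at 7.74, 190 and 5.32 CPM in the 15C4 libraries, against 38.6, 379 and 2.06 CPM in the IgG libraries. Library 2 of each group was the highest for Cd200, as it was for the pan-endothelial sum. Lgals3, encoding galectin-3, was at 0, 12.3 and 29.6 CPM in the 15C4 libraries, against 3.09, 1.24 and 2.83 CPM in the IgG libraries, and its log2 fold change was 2.71 (SE 1.78). 4632428N05Rik, which encodes the checkpoint protein VISTA, was at 0.595, 0.204 and 3.13 CPM in the 15C4 libraries, against 7.73, 29.4 and 0 CPM in the IgG libraries (-3.07, SE 2.07). The groups overlapped for both, with 15C4 1 the lowest library for Lgals3 and IgG 3 for 4632428N05Rik. Cd80, Cd86, Fgl1 and Tnfrsf14 stayed under 1 CPM in every library, and Vtcn1 and Btn2a2 had 0 counts throughout.

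Of the 14 receptor genes, 3 were tested (2 above 0, 1 below, median 0.22), and with limma-voom and sample weights all 3 lay below 0 (median -0.08). The T cell checkpoint receptors were at or near 0, with 0 counts of Ctla4 and Btla in any library and Pdcd1 and Havcr2 at 0.193 CPM in IgG 1 and 0 elsewhere. Sirpa, the CD47 receptor of myeloid cells, was abundant all the same, at 123, 59.8 and 51.8 CPM in the 15C4 libraries, against 65.1, 123 and 97.8 CPM in the IgG libraries. Cd160, which encodes a receptor of NK and T cells, was at 38.8 CPM in 15C4 1, at 15.3 CPM in IgG 1 and at 4.07 CPM or less elsewhere. The chemokine gene Ccl5 was highest in the same pair of libraries, with 214 CPM in 15C4 1, against 124 CPM in IgG 1, while Nkg7, a gene of cytotoxic lymphocytes, had 1.90 CPM in 15C4 1, against 105 CPM in IgG 1.

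The list around CD47 held the partner genes with the smallest unadjusted p. Of its 7 genes, 5 were tested, 2 above 0 and 3 below (median -0.23). Itgb3, the beta-3 subunit of an integrin that associates with CD47, was at 123, 67.3 and 70.2 CPM in 15C4 1, 2 and 3, against 54.7, 40.8 and 30.3 CPM in IgG 1, 2 and 3 (log2 fold change 1.12, SE 0.47, unadjusted p = 0.0432, adjusted p = 0.9997 by the edgeR test). All 15C4 libraries lay above all IgG libraries, as for 2.88% of tested genes, and 1.26% had an unadjusted p under 0.05 in this direction. Itgav, the alpha-v subunit that pairs with it, was at 350, 320 and 362 CPM in the 15C4 libraries, against 601, 503 and 606 CPM in the IgG libraries (-0.63, SE 0.28, unadjusted p = 0.0527). Qpctl, whose product modifies the CD47 terminus that SIRP-alpha recognises, had 1, 3 and 0 counts in the 15C4 libraries, against 22, 24 and 83 counts in the IgG libraries (-5.32, SE 1.75, unadjusted p = 0.0150). For both, every 15C4 library lay below every IgG library, as for 6.64% of tested genes, and 1.33% had an unadjusted p under 0.05 in this direction. Qpctl passed the filter on low counts only through the IgG libraries, where it was high. Its p and its separation are therefore not independent of that filter and only describe the counts. Thbs1, encoding thrombospondin-1, a CD47 ligand, was at 333, 663 and 635 CPM in the 15C4 libraries, against 571, 499 and 35.05 CPM in the IgG libraries. IgG 3 was its lowest library, as for Cd276, Nt5e and Entpd1.

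All 12 genes of interferon gamma signalling and control of PD-L1 were tested, 8 above 0 and 4 below (median 0.09). With library totals in place of TMM factors they were 6 and 6 (median 0.00107, beside -0.07 for all genes). Jak1 was at 258 ± 119 CPM in 15C4, against 343 ± 46.4 CPM in IgG, and Ptpn2, a phosphatase that dampens this pathway, at 215 ± 85.3 CPM in 15C4, against 161 ± 55.0 CPM in IgG (SD, n = 3 each).

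Of the 20 adenosine and extracellular nucleotide genes, 8 were tested, 2 above 0 and 6 below (median -0.54). Slc29a1, which encodes a nucleoside transporter that carries adenosine across the membrane, was at 3.93, 10.4 and 12.4 CPM in 15C4 1, 2 and 3, against 31.1, 22.1 and 30.3 CPM in IgG 1, 2 and 3. All 15C4 libraries lay below all IgG libraries, as for 6.64% of tested genes, and the log2 fold change was -1.51 (SE 0.78, unadjusted p = 0.0879 by the edgeR test). Adk, encoding the kinase that clears adenosine inside cells, was at 29.3 ± 18.3 CPM in 15C4, against 51.6 ± 20.7 CPM in IgG, and Cd38, an ectoenzyme of NAD, at 35.4 ± 22.5 CPM in 15C4, against 48.9 ± 34.7 CPM in IgG. Panx1, which encodes an ATP release channel, had 3.14 ± 3.17 CPM in 15C4, against 9.85 ± 8.22 CPM in IgG. Of the adenosine receptors, Adora1 and Adora3 had 0 counts and Adora2a and Adora2b stayed at or below 1.55 CPM.

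Of the 9 genes of the FAS death pathway, 7 were tested, 4 above 0 and 3 below (median 0.05), or 3 and 4 with library totals only (median -0.06). The inhibitor gene Cflar was at 200.1 ± 114 CPM in 15C4, against 164 ± 45.9 CPM in IgG, and Casp8, its initiator caspase, at 99.9 ± 28.7 CPM in 15C4, against 84.4 ± 4.46 CPM in IgG. Faim, an inhibitor of FAS-induced death, was at 29.2, 34.7 and 48.6 CPM in the 15C4 libraries, against 36.5, 37.8 and 43.2 CPM in the IgG libraries.

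The genes whose pattern over the 6 libraries was nearest to a member were ranked by the mean absolute difference of log2(CPM + 1), centred on each gene's own mean. The nearest genes were Dhrs13 (0.26) and Rbm20 (0.26) to Cd274, Wipf1 (0.12) and Snapc4 (0.13) to Cd276, and Hsdl1 (0.05) and Nfx1 (0.10) to Cd47. They were Faap20 (0.06) and Dctn6 (0.07) to Lgals1, Rps7 (0.06) and Aarsd1 (0.06) to Lgals9, and Tmem67 (0.08) and Ddr2 (0.09) to Pvr. Camsap1 (0.11) and Nin (0.16) were nearest to Nt5e, and Slc43a3 (0.17) and the endothelial receptor gene Robo4 (0.22) to Entpd1. Robo4 was at 40.1, 101 and 47.1 CPM in the 15C4 libraries, against 72.3, 100.2 and 7.37 CPM in the IgG libraries. That it was lowest in IgG 3, as Entpd1 was, follows largely from its choice by pattern.

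Leaving out libraries in turn moved the fitted differences of some members across 0. The log2 fold change of Cd274 lay between -1.20, without 15C4 1, and 0.55, without IgG 2. That of Entpd1 lay between -0.63, without IgG 3, and 0.43, without IgG 2. Cd276 (0.87 to 1.83), Nt5e (0.61 to 1.24) and Lgals9 (0.12 to 0.47) stayed above 0, and Lgals1 (-0.65 to -0.05) and Pvr (-0.41 to -0.08) below it, in all 6 of these fits.

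**Figure D4:**
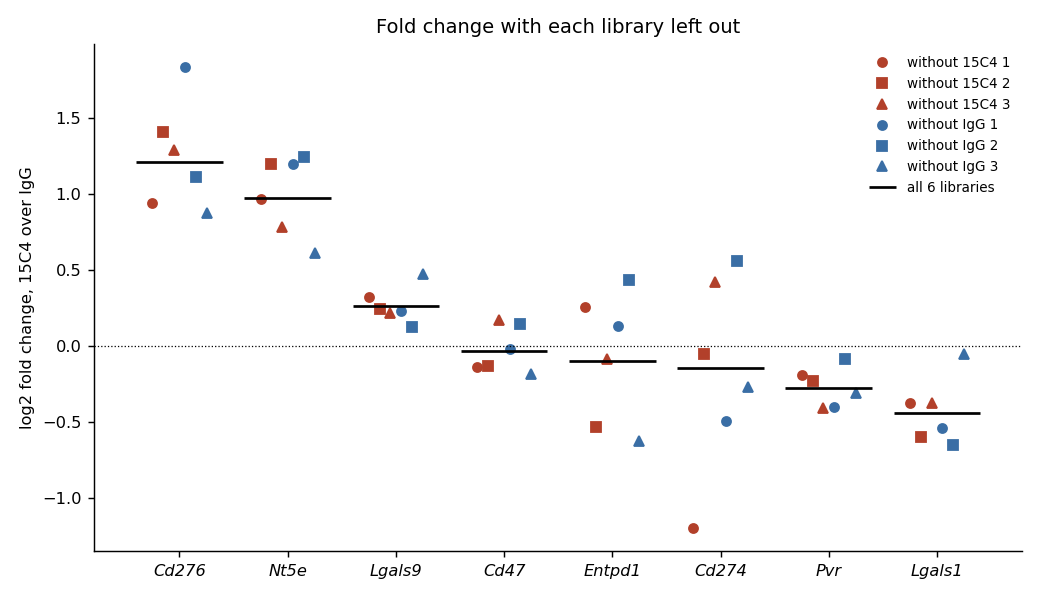
Log2 fold change of 15C4 over IgG (y axis) for the 8 tested members with all 6 libraries (black line) and with each library left out (red, a 15C4 library; blue, an IgG library). Cd276, Nt5e and Lgals9 stay above 0 and Pvr and Lgals1 below it, while Cd274, Cd47 and Entpd1 cross it.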

How the data were processed

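RNA of 6 libraries (3 15C4, 3 IgG) was sequenced. Per the labels' protocols, cDNA was amplified by PCR before libraries were made with Nextera XT. The authors deposited whole-number counts per gene symbol. The submitters' processing notes name fastp, STAR 2.5b, featureCounts and DESeq2, and both mm10 and mm9. The annotation, the strand setting and the build behind the counts are not stated there. The authors' deposited table holds the same counts for the 24394 symbols spelled alike. Per the file headers it also holds their log2 fold change, which by its sign against the group means is IgG over 15C4, and their p-value and adjusted p-value, printed here only where named as deposited.

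Members were found by symbol. CPM is the count scaled to the library total. The whole table was tested with the edgeR 4.0.16 quasi-likelihood test (R 4.3.3; TMM, filterByExpr, treatment as the only term, Benjamini-Hochberg over 11144 genes, threshold 0.05). The SE is the absolute log2 fold change over the square root of the F statistic. DESeq2 1.42.0, limma 3.58.1 (voom), other normalisations and filters, a replicate term and leaving out libraries were alternatives. Coordinates are from GENCODE M21 on GRCm38, promoter sequences from RefSeq GRCm38.p6. The test was tested on simulated data with 1 common dispersion and planted changes larger than those fitted for the tested members. It therefore does not show the power to find changes of the members' size. The members and lists were chosen with earlier results of these data known. Named genes are all members, of each partner list the 3 most abundant tested genes and the 2 with the smallest p, of each marker list the 2 most abundant, and the 2 genes nearest in pattern to each member with a mean of at least 10 CPM. Some genes that this rule names are not reported here. Other genes named beside a member (Irf1, melanocyte genes, Cmtm6, Nkg7, the receptors, genes at or near 0) were chosen after their values were seen. Totals of 5175600 to 19572202 counts make 1 count worth 0.0511 to 0.193 CPM. Intervals and floors (3 counts) cover only counting error, as reads from PCR are not independent molecules where no molecular identifiers were used.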

Additional observations from a re-analysis of the deposited data

How the results depend on the processing

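Of 139 values of the 10 genes under alternative settings, 118 counted as unchanged and 15 turned in sign. For the 8 tested members, unchanged means the same direction and the same side of the threshold. For Fasl, which has no adjusted p in these settings, it means a ratio within its counting interval. The last 6 belonged to the low genes Pdcd1lg2 and Fasl. Fasl moved beyond its counting interval without IgG 1. The rest were values of Pdcd1lg2 at the floor, which have no interval to compare them with. In all these settings 0 adjusted p were under 0.05. The edgeR count of 0 called genes became 1 with no filter and 26 with DESeq2, none of them a member, and stayed 0 otherwise. The main fit had 288 genes at an unadjusted p under 0.05. Over the settings with 0 called genes this number lay between 207, with the replicate block, and 672, without 15C4 1. The log2 fold change of Cd47 was 0.027 with limma-voom and 0.036 with sample weights, that of Entpd1 1.05 and 0.28, and that of Cd274 0.091 with sample weights. Limma-voom moved the median of all genes to -0.14, against 0.01, and that of the 8 members to 0.15. With both 15C4 3 and IgG 3 left out, a setting chosen after seeing the data, it was 0.26 for Cd274 and 0.00623 for Lgals1. With single libraries left out, the ranges were -1.20 to 0.55 for Cd274, -0.19 to 0.17 for Cd47 and -0.63 to 0.43 for Entpd1. For Fasl the range was -6.28 to -3.01. For Pdcd1lg2 at the floor it was -2.44 to -0.38, with no value without IgG 1. With no filter the edgeR fits of Fasl (-5.83) and Pdcd1lg2 (-5.14) lay below 0 as well, with an adjusted p of 0.898 for each. These fits depend on the prior count. With the replicate number as a block, 0 genes were called and Entpd1 was at 0.35. Deviations from the group mean correlated at -0.0516, 0.0648 and 0.105 between libraries of the same number. Between libraries of unlike numbers the correlations were -0.122 to 0.0853. With 3 libraries a group, these values cannot decide whether libraries of the same number are linked. The cause of these moves was not tested. Counts limit what can be said of Fasl (2 in 15C4, 69 in IgG) and Pdcd1lg2 (0 in 15C4, 7 in IgG).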

Other observations

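Some partner genes of the checkpoint list were found mainly in IgG 2, and are named here after their values were seen. Cd24a, which encodes a glycoprotein that engages the myeloid receptor Siglec-G in mice, had 0 counts in every 15C4 library, against 0, 402 and 0 counts in IgG 1, 2 and 3. Tnfsf10, which encodes the death ligand TRAIL, was at 0.238, 10.1 and 0 CPM in the 15C4 libraries, against 11.4, 82.8 and 0 CPM in the IgG libraries. IgG 2 also held the highest Cd200 and the highest sum of lymphatic endothelial markers, 1168 CPM against 11.6 to 63.8 CPM in the other 5 libraries.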
